A study of Homo sapiens with 3 samples.

Results

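SNORD49A, SNORD49B and SNORD65 are 3 box C/D small nucleolar RNAs (snoRNAs) that lie within SNHG29, a noncoding gene. They were taken from the snoRNA records of the series by entry name (U49A, U49B and HBII-135) and are 3 of 259 snoRNAs with reads, 147 of them of the box C/D class. All 3 had reads in each of 3 small RNA libraries from HEK293, a long-established line derived from human embryonic kidney, grown in serum-containing medium. The libraries form 1 group, with no treatment named, and nothing in the labels says whether they came from separate cultures. The p-values given here therefore reflect only how these libraries differ from each other, which may be technical. The libraries held 19989, 11958 and 19092 snoRNA counts, and library 2 had more short reads than the others, with 27.3% of its counts at up to 40 nt against 11.9% and 12.1%.

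A box C/D snoRNA is cut out of an intron of its host transcript and folds so that box C, near its 5′ end, and box D, near its 3′ end, come together. Proteins bound to these boxes protect both ends from exonucleases, and the snoRNA pairs with ribosomal RNA and directs the methylation of a ribose there. SNORD49A and SNORD49B guide a modification of the large-subunit rRNA and SNORD65 guides one of the small-subunit rRNA. SNHG29 belongs to the small nucleolar RNA host genes, whose spliced RNA codes for no large protein.

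The sequences of the 3 snoRNAs, as annotated in GENCODE 29, are shown because the reads are described by position along them. Capitals mark box C (TGATGA) and box D (CTGA).
SNORD49A: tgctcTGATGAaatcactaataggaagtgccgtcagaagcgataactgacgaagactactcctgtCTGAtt
SNORD49B: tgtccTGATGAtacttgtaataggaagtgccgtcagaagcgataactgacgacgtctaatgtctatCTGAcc
SNORD65: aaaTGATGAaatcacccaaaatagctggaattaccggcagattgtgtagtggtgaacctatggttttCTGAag

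Box C lay at positions 6 to 11 in SNORD49A and SNORD49B and at 4 to 9 in SNORD65, and in each of them 2 nt followed box D. SNORD49A and SNORD49B share an unbroken stretch of 35 nt, at positions 18 to 52 of both, which is shown because reads confined to it could not be told apart. In it, capitals mark a second CTGA.
Shared stretch: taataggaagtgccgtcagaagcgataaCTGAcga

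With no gaps, the SNORD49 sequences were identical at 50 of 71 compared positions. SNORD65 shared no run longer than 12 nt with SNORD49A or 6 nt with SNORD49B. None of the 667 SNORD49A reads and none of the 130 SNORD49B reads lay wholly inside the shared stretch (0 and 0 reads). The treatment upstream of reads that match both entries was not given in the sources used here.

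All 3 snoRNAs lie on the plus strand of chromosome 17 (GRCh38), in the order SNORD49B, SNORD49A, SNORD65. SNORD49B is annotated at 16439505 to 16439576, SNORD49A at 16440036 to 16440106 and SNORD65 at 16441226 to 16441298. Gaps of 459 nt and 1119 nt separate them. GENCODE 29 gives the host as LRRC75A-AS1 (16438822 to 16478678), an older name of SNHG29, with 30 transcripts. SNORD49A was intronic in 27 of these transcripts, SNORD65 in 24 and SNORD49B in 23. An exon overlapped SNORD49A in 2, SNORD65 in 3 and SNORD49B in 7 transcripts. The most frequent distance to the next exon was 78 nt for SNORD49A (24 transcripts) and 69 nt for SNORD65 (15 transcripts), against 608 nt for SNORD49B (13 transcripts).

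The SNORD49B reads covered less than its GENCODE model. The highest position of any SNORD49B read was 48, which is the length of the RefSeq model (16439509 to 16439556), whereas the GENCODE model has 72 nt. The RefSeq model covers positions 5 to 52 of the longer one and leaves out 4 nt at the 5′ end and 20 nt at the 3′ end, box D included. Its last base is also the last base of the stretch shared with SNORD49A. For SNORD49A and SNORD65 the highest positions, 71 and 73, equalled the lengths of both models. That the entry is the RefSeq model was inferred from this length alone. If so, the values of SNORD49B describe reads on the inner part of that snoRNA only. The longest SNORD49B read listed had 50 nt, against 75 nt for SNORD49A and 81 nt for SNORD65. The reference sequence used upstream is not among the sources used here, and whether longer reads were clipped to 48 positions was not tested. Starts at 1 and ends at 48 therefore cannot be told apart from limits of the reference. The same holds for starts at 1 and ends at 71 in SNORD49A and at 73 in SNORD65. There too, some reads were longer than the entry.

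SNORD49A was the most abundant of the 3 snoRNAs in every library. It had 334, 106 and 227 reads in libraries 1, 2 and 3, or 1.67%, 0.886% and 1.19% of the snoRNA counts. The exact 95% binomial intervals were 1.5% to 1.86%, 0.726% to 1.07% and 1.04% to 1.35%. Library 1 was the highest, and its interval overlapped neither of the others. Its mean share was 1.25% ± 0.40 (SD, n = 3). Over the 147 box C/D snoRNAs the median of the mean shares was 0.332%.

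SNORD65 had 79, 27 and 83 reads, or 0.395%, 0.226% and 0.435% of the counts, with a mean of 0.352% ± 0.11 (SD, n = 3). Its intervals were 0.313% to 0.492%, 0.149% to 0.328% and 0.346% to 0.539%, so that library 2 was lower than library 3 beyond counting error but not separated from library 1. SNORD49B had 61, 27 and 42 reads, or 0.305%, 0.226% and 0.220%, with a mean of 0.25% ± 0.048 (SD, n = 3). With each record counted once the mean share of SNORD49B was 0.157%. The intervals of SNORD49B, 0.234% to 0.392%, 0.149% to 0.328% and 0.159% to 0.297%, all overlapped. Together the 3 snoRNAs took 2.37%, 1.34% and 1.84% of the counts. By mean share of counts SNORD49A ranked 23, SNORD65 ranked 70 and SNORD49B ranked 85 of the 147 box C/D snoRNAs.

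**Figure D1:**
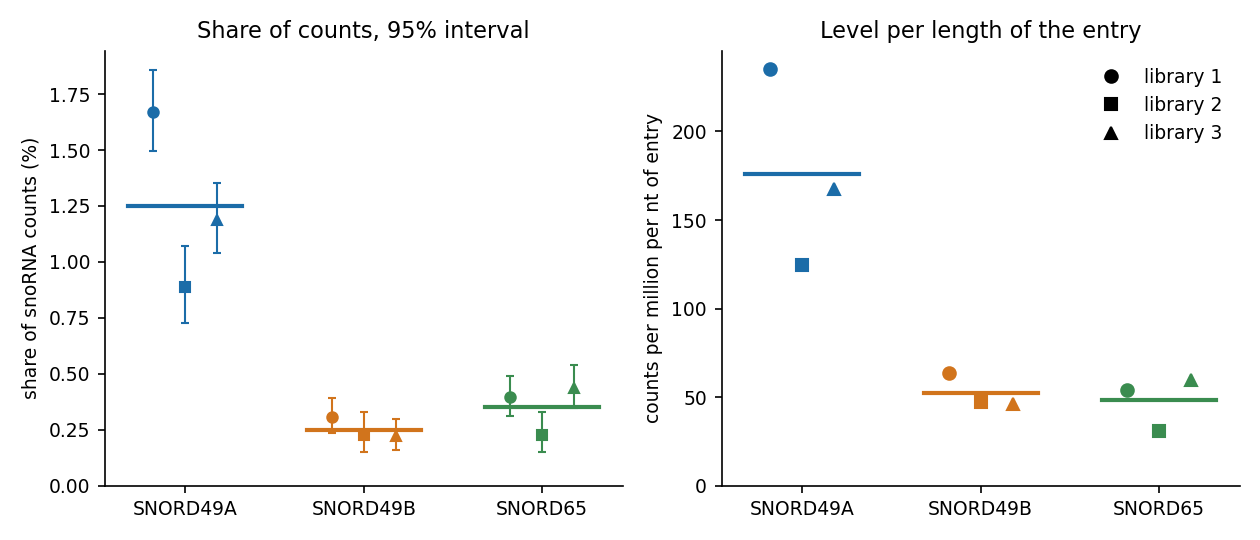
Share of snoRNA counts in percent, with exact 95% binomial intervals (left), and CPM per nt of the entry (right) of SNORD49A, SNORD49B and SNORD65 in libraries 1 to 3, with horizontal lines at the mean. The 3 SNORD49A points lie between 0.886% and 1.67% and above all points of the other two on both scales.

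Levels of different snoRNAs were compared by reads and, a choice made after seeing the data, per nt of their entries. By the mean log2 ratio of reads, SNORD49B was 4.88-fold and SNORD65 3.57-fold lower than SNORD49A. Most reads ran from end to end of the entry, and division by length raises a short entry such as that of SNORD49B. Per nt, with counts scaled to CPM by the library total, SNORD49A had 235, 125 and 167 CPM per nt. SNORD49B had 63.6, 47.0 and 45.8, and SNORD65 54.1, 30.9 and 59.6. The level of SNORD49A per nt was 3.70, 2.65 and 3.65 times that of SNORD49B and 4.35, 4.04 and 2.81 times that of SNORD65. By the mean log2 ratio per nt, SNORD49B was lower by 3.30-fold (log2 -1.72 ± 0.27, SD, n = 3) and SNORD65 by 3.67-fold (log2 -1.87 ± 0.34, SD, n = 3), in 3 of 3 libraries each. An exact permutation test that flips the signs of the log2 ratios (two-sided) gave p = 0.25 for both, also after Benjamini-Hochberg adjustment over 2 tests, which is the smallest p that 3 libraries allow. Per nt, SNORD49B and SNORD65 had no fixed order, since the ratio of SNORD49B to SNORD65 was 1.17, 1.52 and 0.770. By reads SNORD49B was not above SNORD65 in any library (61, 27 and 42 against 79, 27 and 83 reads). The order per nt thus depends on the SNORD49B entry of 48 nt, which is shorter than the GENCODE model of 72 nt.

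Between libraries the shares of SNORD49A, SNORD49B and SNORD65 varied 1.88-fold, 1.39-fold and 1.93-fold from the lowest to the highest. The median of this fold over the 125 snoRNAs that reached 10 counts in each library was 1.79, and 46.4%, 83.2% and 40% of them varied at least as much as SNORD49A, SNORD49B and SNORD65. Without library 2 the fold of SNORD65 was 1.10. The library with the highest share was library 1 for SNORD49A and SNORD49B and library 3 for SNORD65. Only for SNORD49A was the highest library apart from the others by its interval. SNORD49A also had the most reads, 667 against 130 for SNORD49B and 189 for SNORD65, and intervals narrow with more reads. How many of the 125 snoRNAs have such a separate highest library is not given here. Over the 125 snoRNAs, library 1 was the highest for 28%, library 2 for 23.2% and library 3 for 48.8%. Among the other 124 snoRNAs, those with the most similar log2 shares over the 3 libraries were SNORD34 (Euclidean distance 0.46) and SNORD45C (0.50) for SNORD49A. For SNORD49B they were SNORD84 (0.42) and SNORD57 (0.50), and for SNORD65 SNORD67 (0.18) and SNORD22 (0.21). With 3 libraries this likeness is a description only.

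Most reads of the 3 snoRNAs ran from the first to the last position of the entry. Of SNORD49A reads, 251, 64 and 171 ran exactly from 1 to 71, or 75.1%, 60.4% and 75.3% of its reads. Of SNORD65 reads, 54, 14 and 56 ran exactly from 1 to 73, or 68.4%, 51.9% and 67.5%. Library 2 had the lowest share for both. Of SNORD49B reads, 58, 23 and 41 ran exactly from 1 to 48, or 95.1%, 85.2% and 97.6%. Over all other box C/D reads the share that covered the entry exactly was 17.8% ± 3.8 (SD, n = 3), since many entries have their commonest read ends inside the entry. In 37 of the 108 box C/D snoRNAs that reached 10 counts in each library, SNORD49A, SNORD49B and SNORD65 among them, both the commonest start and the commonest end were the outermost positions.

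Reads that spanned at least 90% of the entry made up 84.4%, 67.0% and 85.5% of SNORD49A reads, a mean of 79.0% ± 10 (SD, n = 3). For SNORD65 they were 73.4%, 59.3% and 74.7%, a mean of 69.1% ± 8.6, and for SNORD49B 96.7%, 88.9% and 97.6%, a mean of 94.4% ± 4.8 (SD, n = 3 each). The other box C/D reads, pooled, had 69.9%, 57.4% and 67.4%. Over the 108 box C/D snoRNAs with enough counts, the median of the mean shares was 70.3%. Among these, counted from the highest, SNORD49B ranked 1, SNORD49A 40 and SNORD65 56. For SNORD49B the value describes the 48 positions with reads, and 0% of its reads spanned 90% of the 72 nt model.

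Read ends were described in each library, and differences between the 5′ and the 3′ end were not tested. SNORD49A reads began at position 1 in 92.5%, 77.4% and 92.1% of cases, and the intervals were 89.1% to 95.1%, 68.2% to 84.9% and 87.8% to 95.2%. The value of library 2 lay below both others with no overlap of the intervals. Over the other box C/D reads library 2 was also the lowest, with 39.3%, 31.1% and 35.9% of reads starting at position 1 and 29.5%, 21.2% and 30.2% ending at the last position. SNORD49A reads ended at position 71 in 79.6%, 79.2% and 83.3% of cases, and there the intervals overlapped. The next commonest ends were position 70, with 18, 10 and 7 reads, and position 69, with 6, 0 and 5 reads, both beyond the letters of box D or at its last base.

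SNORD65 reads began at position 1 in 86.1%, 66.7% and 88.0% of cases and ended at position 73 in 78.5%, 85.2% and 77.1%. Library 2 was again the lowest at the 5′ end. At the 3′ end library 2 was the highest, unlike for SNORD49A, where it was the lowest. With 27 SNORD65 reads its intervals, 46.04% to 83.5% and 66.3% to 95.8%, overlapped those of the other libraries. SNORD49B reads began at position 1 in 98.4%, 96.3% and 100% of cases and ended at position 48 in 96.7%, 88.9% and 97.6%. These may be limits of the reference and not ends of the RNA. The outermost positions of SNORD49A and SNORD65 are likewise limits of their entries, and whether longer reads were clipped there was not tested.

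**Figure D2:**
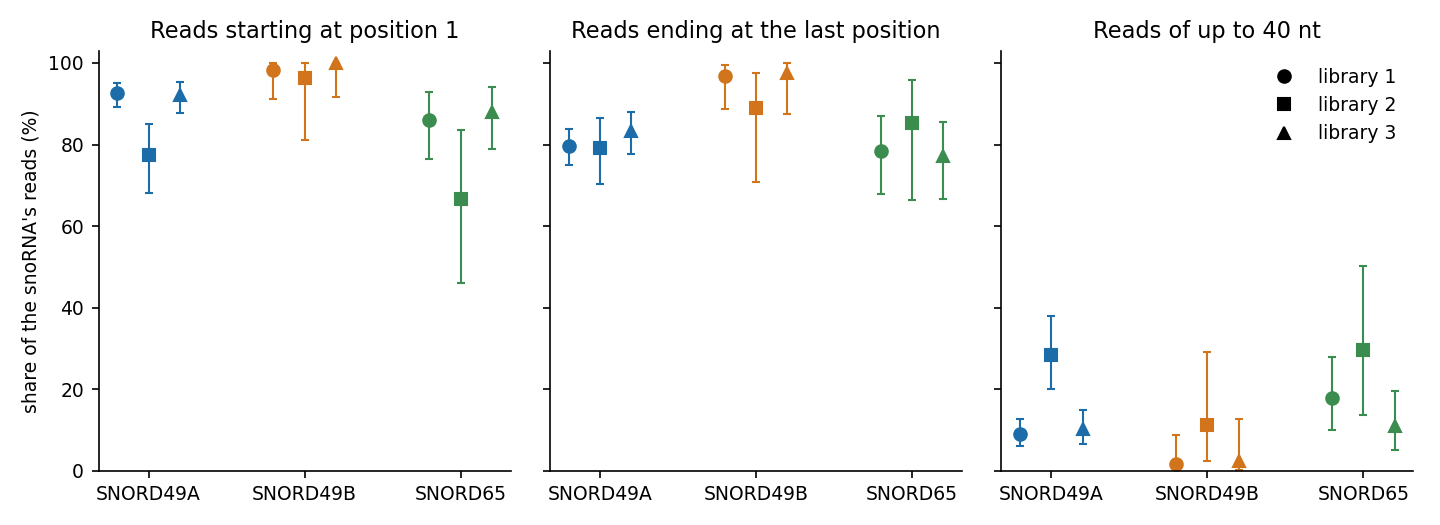
Percent of the reads of SNORD49A, SNORD49B and SNORD65 that start at position 1 (left), end at the last position of the entry (middle) or have up to 40 nt (right) in libraries 1 to 3, with exact 95% binomial intervals. For SNORD49A, library 2 stands at 77.4% for starts against 92.5% and 92.1%, while the 3 values for ends lie between 79.2% and 83.3%.

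Short reads, of up to 40 nt, were 30, 30 and 23 of the SNORD49A reads (8.98%, 28.3% and 10.1%), 1, 3 and 1 of the SNORD49B reads (1.64%, 11.1% and 2.38%) and 14, 8 and 9 of the SNORD65 reads (17.7%, 29.6% and 10.8%). Library 2 was the highest for each of the 3 snoRNAs, as it was over the other box C/D reads (11.6%, 25.2% and 11.5%). For SNORD49A the interval of library 2, 19.98% to 37.9%, lay above those of libraries 1 and 3, 6.14% to 12.6% and 6.53% to 14.8%.

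Of the 125 snoRNAs compared by edgeR's quasi-likelihood test for their ratio of short to longer reads, 43 (34.4%) differed from the typical snoRNA of the same libraries, 25 (20%) toward short and 18 (14.4%) toward longer reads. SNORD49B was 1 of the latter, with a log2 ratio of -2.05 ± 0.59 (SE, n = 3) and an edgeR adjusted p of 0.0397. It had the lowest mean share of short reads of the 108 box C/D snoRNAs with enough counts, 5.04% ± 5.3 (SD, n = 3). The call was lost without library 1 (log2 -1.76, edgeR adjusted p = 0.100), without library 3 (log2 -1.90, edgeR adjusted p = 0.122), with DESeq2 (log2 -2.10, adjusted p = 0.0668) and with short reads of up to 30 nt (log2 -1.98, edgeR adjusted p = 0.0718). The SNORD49B entry is taken here as the RefSeq model. A read of up to 35 nt ending at its position 48 would then lie inside the stretch shared with SNORD49A. No such read was listed under either SNORD49 entry. The part in this result of the missing positions beyond 48 was not tested.

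SNORD49A and SNORD65 did not pass this test. Their log2 ratios were -0.097 ± 0.28 and 0.36 ± 0.39 (SE, n = 3), with edgeR adjusted p of 0.800 and 0.516. Their mean shares of short reads, 15.8% ± 11 and 19.4% ± 9.5 (SD, n = 3), stood beside a median of 15.4% over the 108 box C/D snoRNAs. Among snoRNAs of other noncoding hosts, the median share of short reads was 28.6% for 10 snoRNAs of GAS5, 14.5% for 7 of SNHG1 and 44.9% for 2 of SNHG5. In the test, 5 of the 10 GAS5 snoRNAs were called toward short and 2 toward longer reads, against 20% and 14.4% of all snoRNAs tested. For SNHG1 the counts were 1 and 1 of 7, and for SNHG5 1 and 0 of 2.

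**Figure D3:**
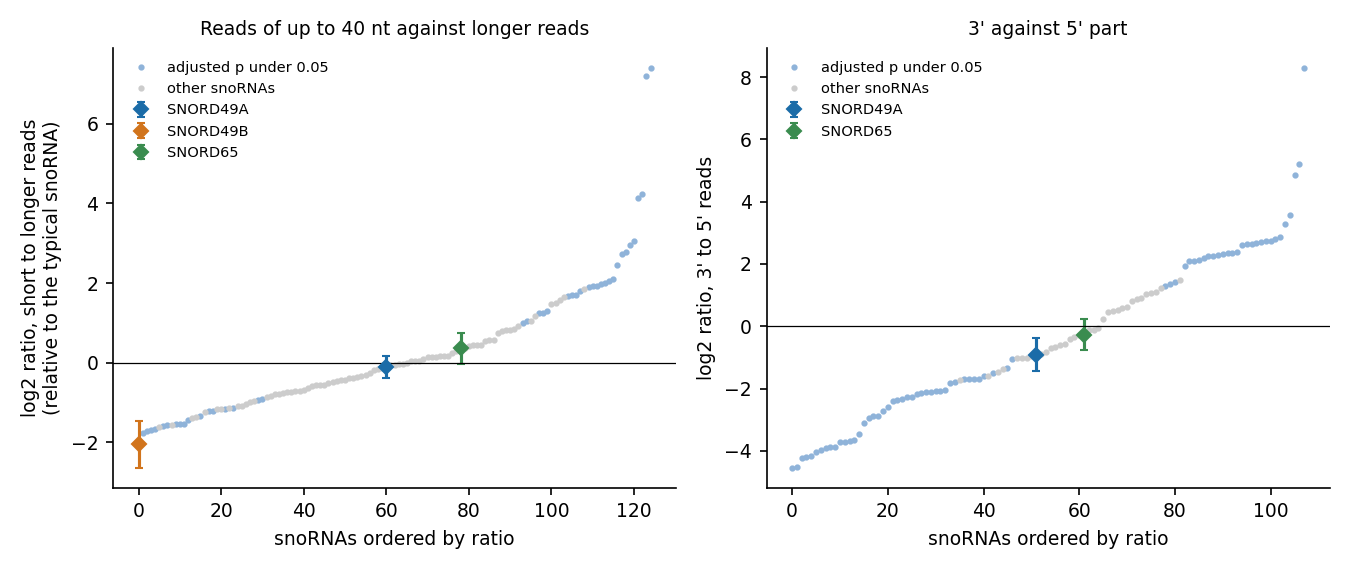
edgeR log2 ratios of reads of up to 40 nt to longer reads for 125 snoRNAs (left) and of 3′ to 5′ reads for 108 snoRNAs (right), in ascending order, with the SE for SNORD49A, SNORD49B and SNORD65. SNORD49B lies at the low end of the left panel at -2.05, and SNORD49A and SNORD65 lie within the range of snoRNAs without a call in both panels.

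The short SNORD49A reads lay in 2 groups. Of 83 such reads in all, 50 reached position 70 or 71 (12, 23 and 15 reads), 30 began at position 1 (15, 7 and 8 reads) and 3 did neither. Libraries 2 and 3 had more reads from the 3′ side than from the 5′ side, and library 1 slightly fewer. Reads of the 3′ group began close together, 40 of 50 (80%, interval 66.3% to 89.97%) between positions 41 and 44, with 11 of 12, 16 of 23 and 13 of 15 in libraries 1, 2 and 3. Reads of the 5′ group ended at 17 different positions between 18 and 40, with no end holding more than 4 reads. These limits are those of the shortest read listed, 18 nt, and of the cut at 40 nt. Reads from position 1 continued past the cut, with 5 ending between 41 and 45. Averaged over libraries, the fewest short reads covered position 40 (0.294% of SNORD49A reads), which the cut at 40 nt favours.

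The commonest short fragments of SNORD49A ran from 42 to 71 (6, 4 and 6 reads) and from 41 to 71 (3, 4 and 3 reads). They began inside the stretch shared with SNORD49B and ran through box D, shown in capitals, to the last base. The first lies at chr17:16440077-16440106 and the second at chr17:16440076-16440106, both on the plus strand (GRCh38).
SNORD49A 42 to 71: ataactgacgaagactactcctgtCTGAtt
SNORD49A 41 to 71: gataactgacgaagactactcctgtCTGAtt

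SNORD65 had 31 short reads, of which 17 reached position 72 or 73 (6, 8 and 3 reads), 11 began at position 1 (6, 0 and 5 reads) and 3 did neither. In library 2 all 8 short reads were from the 3′ side, and in the other libraries both sides were about equally frequent. The commonest ran from 44 to 73 (1, 3 and 1 reads; chr17:16441269-16441298, plus strand, GRCh38) and from 43 to 73 (3, 1 and 0 reads; chr17:16441268-16441298), again through box D to the last base.
SNORD65 44 to 73: gtgtagtggtgaacctatggttttCTGAag
SNORD65 43 to 73: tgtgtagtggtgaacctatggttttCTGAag

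Each of these 4 sequences was found in 1 snoRNA gene only among the GENCODE 29 snoRNA and scaRNA sequences. In both snoRNAs the commonest starts of the 3′ fragments lay 28 to 31 nt from the last position, a window chosen after the values were seen. It held 40 of 50 such reads in SNORD49A and 10 of 17 in SNORD65 (58.8%, interval 32.9% to 81.6%). Over the other box C/D snoRNAs it held 555 of 1354 (40.99%), with 40.3%, 51.3% and 26.8% in libraries 1, 2 and 3. The window was not tested against the other snoRNAs, since it was fitted to SNORD49A. The 5 short SNORD49B reads all began at position 1 and each ended at a different position between 25 and 35. A fragment matching 42 to 71 of SNORD49A would have lain mostly beyond position 48 of SNORD49B, so these reads do not show whether SNORD49B gives one.

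**Figure D4:**
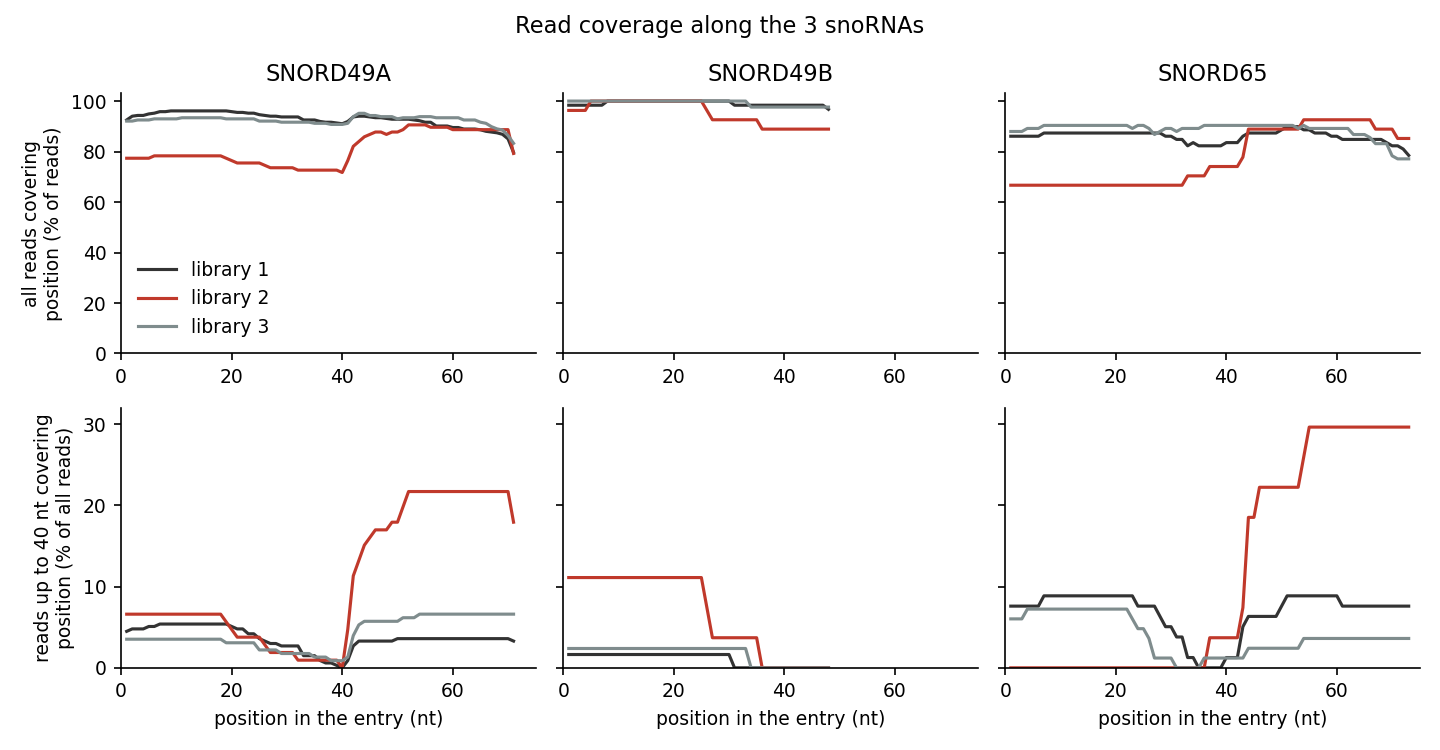
Percent of the reads of SNORD49A, SNORD49B and SNORD65 that cover each position of the entry, for all reads (top) and for reads of up to 40 nt (bottom, as a percent of all reads of that snoRNA), in libraries 1 to 3. Short SNORD49A reads dip to a mean of 0.294% at position 40, where the cut at 40 nt ends the reads from position 1, and the SNORD49B curves stop at position 48.

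Reads of miRNA size, 20 to 24 nt, were few. SNORD49A had 6, 6 and 3 of them (1.80%, 5.66% and 1.32% of its reads) and SNORD65 had 3, 1 and 3 (3.8%, 3.70% and 3.61%). The mean shares were 2.93% ± 2.4 and 3.71% ± 0.092 (SD, n = 3), against 3.07% ± 1.0 over the other box C/D reads. With so few reads the intervals of SNORD65, among them 0.790% to 10.7% in library 1, were far wider than its SD. SNORD49B had 0 such reads of 61, 27 and 42, which allows shares of up to 4.92%, 11.1% and 7.14% (3 counts) and sets no limit beyond the 48 positions. The exact 95% intervals of these shares reach further, to 5.87%, 12.8% and 8.41%.

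A test of read position asked whether reads centred on the 3′ part of a snoRNA were more or less frequent than those centred on the 5′ part. Reads centred exactly on the middle of the entry were set aside, 253, 64 and 171 of SNORD49A and 54, 14 and 56 of SNORD65. Where the commonest ends of a snoRNA lie inside the entry, its near full-length reads can all be placed on 1 part. How many calls arise in this way was not tested. Of 108 snoRNAs, 72 (66.7%) were called by edgeR, 43 (39.8%) toward 5′ and 29 (26.9%) toward 3′, and neither SNORD49A nor SNORD65 was among them. When each part of a library had its own library size, 40 were called toward 5′ and 37 toward 3′. SNORD49A had 65, 18 and 38 reads centred on the 5′ part and 16, 24 and 18 on the 3′ part, so that libraries 1 and 3 had more 5′ reads and library 2 more 3′ reads. The reads centred on the 5′ part include near full-length reads, such as those from 1 to 70 (16, 6 and 7 reads), which lack only the last base. The log2 ratio was -0.92 ± 0.53 (SE, n = 3), with an edgeR adjusted p of 0.165 (unadjusted p = 0.134), and DESeq2 made no call either (adjusted p = 0.166). Without library 2 it was -1.56 with an edgeR adjusted p of 0.00771. With only reads that span at most 50% of the snoRNA it turned to 1.00, without a call (edgeR adjusted p = 0.243).

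SNORD65 had 15, 4 and 18 reads centred on the 5′ part and 10, 9 and 9 on the 3′ part, and library 2 again was the library with more 3′ reads. The log2 ratio was -0.27 ± 0.51 (SE, n = 3), with an edgeR adjusted p of 0.638 (unadjusted p = 0.621). DESeq2 gave an adjusted p of 0.784. The ratio turned to 0.18 without library 3 and when each part had its own library size, without a call. SNORD49B had 2, 3 and 1 reads on the 5′ part and 1, 1 and 0 on the 3′ part. It fell below the 10 placed counts needed for the main test, because nearly all its reads were centred on the middle of the entry. With no filter on low counts its log2 ratio was -1.45, without a call (edgeR adjusted p = 0.457).

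Reads whose length differed from the span they covered are called gapped here, and what made the lengths differ was not tested. Gapped reads were 65, 10 and 29 of the SNORD49A reads (19.5%, 9.43% and 12.8%) and 15, 7 and 18 of the SNORD65 reads (19.0%, 25.9% and 21.7%). They were 6, 0 and 0 of the SNORD49B reads. The mean shares were 13.9% ± 5.1, 22.2% ± 3.5 and 3.28% ± 5.7 for SNORD49A, SNORD65 and SNORD49B (SD, n = 3), against 21.3% ± 3.4 over the other box C/D reads.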

How the data were processed

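Small RNA of HEK293 cells was sequenced in 3 libraries, purified on magnetic beads and prepared with an Ion Total RNA-Seq kit, per the labels' protocols. The authors deposited raw counts: per the file headers, a record holds an entry name, the length of the read, where it starts and ends in the snoRNA and how many such reads there were. Per the submitters' processing notes the build was GRCh38.p10. Aligner, trimming and filters were not given in the sources used here. A second deposited table of counts gave the same totals for library 1 (334, 61 and 79). Its other columns, 2 in number, match no title and were left out.

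Of 260 entries, 249 were named through a RefSeq gene table (GRCh38.p14) and 11 kept the name in the files, leaving 259 snoRNAs. Coordinates and sequences came from GENCODE 29 on GRCh38. The length of an entry was its highest position in any library. Shares have exact (Clopper-Pearson) 95% intervals. Without molecular identifiers reads are not independent molecules, and both the intervals and the floor of 3 counts reflect counting error only. At these depths a count of 0 allows 0.0150%, 0.0251% and 0.0157% of a library.

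Position and short reads were tested with edgeR 4.0.16 (R 4.3.3), with the library as block, on snoRNAs that reached 10 counts in each library (placed counts for position), and Benjamini-Hochberg adjustment at 0.05 over all snoRNAs tested. In the position test both parts of a library had 1 library size, and the short-read test used TMM factors. DESeq2 1.42.0 was an alternative, and both tests were tested on simulated data. Other values came from SciPy 1.17.1, NumPy 2.4.6 and pandas 2.3.3 under Python 3.11.15, and plots from matplotlib 3.10.9. Described for each snoRNA were its commonest ends and fragments, its 2 commonest short fragments and the 2 snoRNAs with the smallest Euclidean distance of log2 shares. The members, lists and tests were chosen with earlier results of these data known.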

Additional observations from a re-analysis of the deposited data

How the results depend on the processing

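The depth limits SNORD49B and SNORD65 most, with 27 reads each in library 2. Each alternative changed 1 choice. With each record counted once SNORD49B took 0.157% of the counts and with ungapped reads only 0.309%. The log2 ratio of SNORD49B to SNORD49A was -2.29 for reads and -1.72 per nt, the latter chosen after seeing the data, as was the GENCODE length, under which 0% of SNORD49B reads spanned the snoRNA. Among reads spanning at least 90%, the commonest start held 98.8% of SNORD49A and 100% of SNORD65 reads, and the commonest end 90.1%, 99.4% and 90.3% of SNORD49A, SNORD49B and SNORD65 reads, as the construction of that subset favours. The position test made 72 calls, and 21 of 44 snoRNAs with reads spanning at most 50%, where fewer were tested. Its SNORD49A log2 ratio there was 1.00, and that of SNORD65 was 0.18 with a library size per part. The short-read test made 43 calls and 67 of 259 with no filter on low counts. With short reads of up to 30 nt its SNORD49A ratio was 0.096 and its SNORD49B ratio -1.98, and with DESeq2 the SNORD49B ratio was -2.10, both without a call. With no replicate block the 2 tests made 74 and 40 calls, and SNORD49B remained called (-2.03).

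Leaving out each library in turn, the fold of SNORD65 between libraries was 1.10 to 1.93, the position ratios were -1.56 to -0.34 for SNORD49A and -0.79 to 0.18 for SNORD65, and the short-read ratios were -0.36 to 0.019 for SNORD49A and -2.74 to -1.76 for SNORD49B. The short-read test made 25 to 35 calls, fewest without library 3, and the position test 52 to 99. Where no cause is given, the cause was not tested.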
